A study of Homo sapiens with 4 samples.

Results

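Human mitochondria carry their own ribosome, the mitoribosome, and its proteins are encoded by nuclear genes with the symbols MRPL (large subunit) and MRPS (small subunit). The genes described here are the protein-coding genes of the count table whose symbol begins with MRPL or MRPS followed by a digit, 78 of 63241 genes in the table and of 20073 protein-coding genes. All 78 passed the filter on low counts. There were 2 libraries from FT190 cells expressing a short hairpin RNA against SMARCA4, labelled shSMARCA4, and 2 from FT190 cells with the PLKO control vector, labelled Ctrl. The labels name 1 hairpin treatment (SMARCA4_sh1), give every library the genotype WT and call FT190 an ovarian epithelial line. FT190 is known as an immortalised line of secretory cells from the fallopian tube. SMARCA4 is an ATPase of the SWI/SNF chromatin remodelling complexes, and the comparison asked which transcripts change when it is depleted.

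Proteins of the mitoribosome are made in the cytosol, imported, and assembled on 2 ribosomal RNAs that are transcribed inside the organelle. The finished particle translates only the messages of the mitochondrial genome, all of which encode subunits of the respiratory chain and ATP synthase. Many of its proteins descend from bacterial ribosomal proteins, and the others were gained in mitochondria. Promoters of these genes are known to carry sites for ETS factors such as GABPA, for NRF1 and for YY1. Symbols do not always give the subunit: MRPS30 and MRPS18A sit in the large subunit, and MRPS36 belongs to a dehydrogenase complex and to neither subunit. By position in the particle there were 51 large subunit genes (30 with a bacterial counterpart and 21 specific to mitochondria), 26 small subunit genes (16 and 10) and MRPS36. These classes do not follow descent strictly. MRPS18A and MRPS18B are listed as specific to mitochondria, although they are paralogs of MRPS18C, which is listed with a bacterial counterpart.

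Total counts were 28536665 and 27137414 in shSMARCA4 libraries 1 and 2, and 33641343 and 32618516 in Ctrl libraries 1 and 2. SMARCA4 stood at 34.0 and 36.3 CPM (counts per 1000000 counts) in the shSMARCA4 libraries, against 171 and 162 CPM in the Ctrl libraries (edgeR adjusted p = 1.86e-07). Genes of the mitochondrial chromosome took 3.19% and 3.08% of counts in the shSMARCA4 libraries, against 3.31% and 4.06% in the Ctrl libraries. Of 9 secretory epithelial markers, 6 were above 1 CPM, PAX8 and the keratins KRT7, KRT8 and KRT18 among them, while EPCAM, KRT19 and OVGP1 were below 1 CPM. These 9 markers summed to 1262 and 1264 CPM in the shSMARCA4 libraries, against 1853 and 1747 CPM in the Ctrl libraries. KRT7 (log2 fold change -0.97), KRT8 (-0.44) and KRT18 (-0.23) fell, WT1 (0.35) rose and PAX8 (0.11, adjusted p = 0.103 by edgeR) did not pass. Of 6 immune markers, 5 were below 1 CPM, CD14 among them, which fell, and their sum, nearly all CD68, was 23.6 and 25.2 CPM in the shSMARCA4 libraries, against 23.2 and 25.7 CPM in the Ctrl libraries. All ciliated and endothelial markers in the table were below 1 CPM. Markers of fibroblasts and smooth muscle summed to 1790 and 1927 CPM in the shSMARCA4 libraries, against 2610 and 2615 CPM in the Ctrl libraries. Most of this sum was COL1A1, which fell (log2 fold change -0.31). CNN1 (-2.39), TAGLN (-1.50), ACTA2 (-1.46), LUM (-1.07) and PDGFRB (-0.67) also fell, and MYH11 (0.07) did not pass. COL1A2, COL3A1 and DCN were below 1 CPM. The part of any of these cell type markers in the results below was not tested. In RNA from whole cultures, fewer cells of a type and less RNA per cell cannot be told apart. Nothing in the labels ties the 2 libraries of a group to separate cultures. The p-values therefore rest on the spread between these libraries alone, and this spread may be technical.

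Levels of the 78 genes spanned a wide range. Counted per length (CPM per kilobase of the counted transcript, mean of all 4 libraries), MRPL3 was highest at 166. MRPL51 (116), MRPL18 (115), MRPL37 (95.4) and MRPL20 (84.4) came next. MRPL23 was lowest at 2.47 CPM per kilobase, and MRPL42 (6.76), MRPS5 (7.50), MRPL50 (7.61) and MRPL55 (8.04) were the next above it. The counted transcript of MRPL42 is 15546 bases long and that of MRPS5 7113 bases, against a median of 1389 bases over the 78 genes, so a long counted transcript goes with the low place of both. Summed over the large subunit, levels were 1990 and 1973 CPM per kilobase in shSMARCA4 libraries 1 and 2, against 1902 and 1788 in Ctrl libraries 1 and 2. Summed over the small subunit they were 807 and 797 CPM per kilobase in the shSMARCA4 libraries, against 792 and 752 in the Ctrl libraries. Both sums were higher in each shSMARCA4 library than in either Ctrl library. For both subunits, however, the gap between shSMARCA4 library 2 and Ctrl library 1 was smaller than the gap between the Ctrl libraries. The large subunit sum was 2.47 and 2.48 times the small subunit sum in the shSMARCA4 libraries, against 2.40 and 2.38 times in the Ctrl libraries. No test was run on these sums; an exact permutation test of 2 libraries against 2 cannot go below p = 0.333.

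Most mitoribosomal protein transcripts had values slightly above Ctrl in shSMARCA4 cells, and a minority passed the test. Of the 78 genes, 16 rose and 3 fell (adjusted p under 0.05 by edgeR's quasi-likelihood test), which is 24.4% of them, against 29.7% of all 18781 genes tested. By direction, 20.5% rose and 3.85% fell, against 13.8% and 15.8% of all genes tested. Among the 11432 protein-coding genes tested within the level range of the 78, 38.3% were called, 18.7% higher and 19.7% lower. Against these the share that rose was close to the background, and the shares called and lower were below it; none of these differences was tested. The log2 fold change of shSMARCA4 over Ctrl was above 0 in 64 of the 78 genes and below 0 in 14, while it was above 0 in 49.2% of all genes tested. Its median was 0.10 over the 78 genes and -0.00 over all genes tested, and it ran from -0.23 to 0.33. None of the 78 genes changed by more than 0.5 on the log2 scale, as 3080 of all genes tested did. The 2 groups did not overlap in 52 of the 78 genes, 44 with both shSMARCA4 libraries above both Ctrl libraries and 8 with both below. Over all genes tested the groups did not overlap in 65.9%, and the shSMARCA4 libraries were above in 32.4%. Scaling by library totals alone moved the split of all calls to 59.5% higher, against 46.6% in the fit reported, and 31 of the 78 genes then rose and 2 fell.

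The count of genes that rose depended on single libraries. Relative to the mean of the Ctrl libraries, the median log2 difference of the 78 genes was 0.10 in each shSMARCA4 library, 0.04 in Ctrl library 1 and -0.04 in Ctrl library 2. Without Ctrl library 1, 33 genes rose and 2 fell, and without Ctrl library 2, 14 rose and 4 fell and the median log2 fold change was 0.05. Without shSMARCA4 library 1, 8 rose and 1 fell, and without shSMARCA4 library 2, 10 rose and 1 fell. DESeq2 called 6 as higher and 1 as lower, which is 8.97% of the 78, against 21.9% of all genes it tested. The share of all genes called moved in these fits as well. It was above that of the fit reported when a Ctrl library was left out. When a shSMARCA4 library was left out, and with DESeq2, it was below. These counts therefore do not describe the 78 genes alone.

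**Figure D1:**
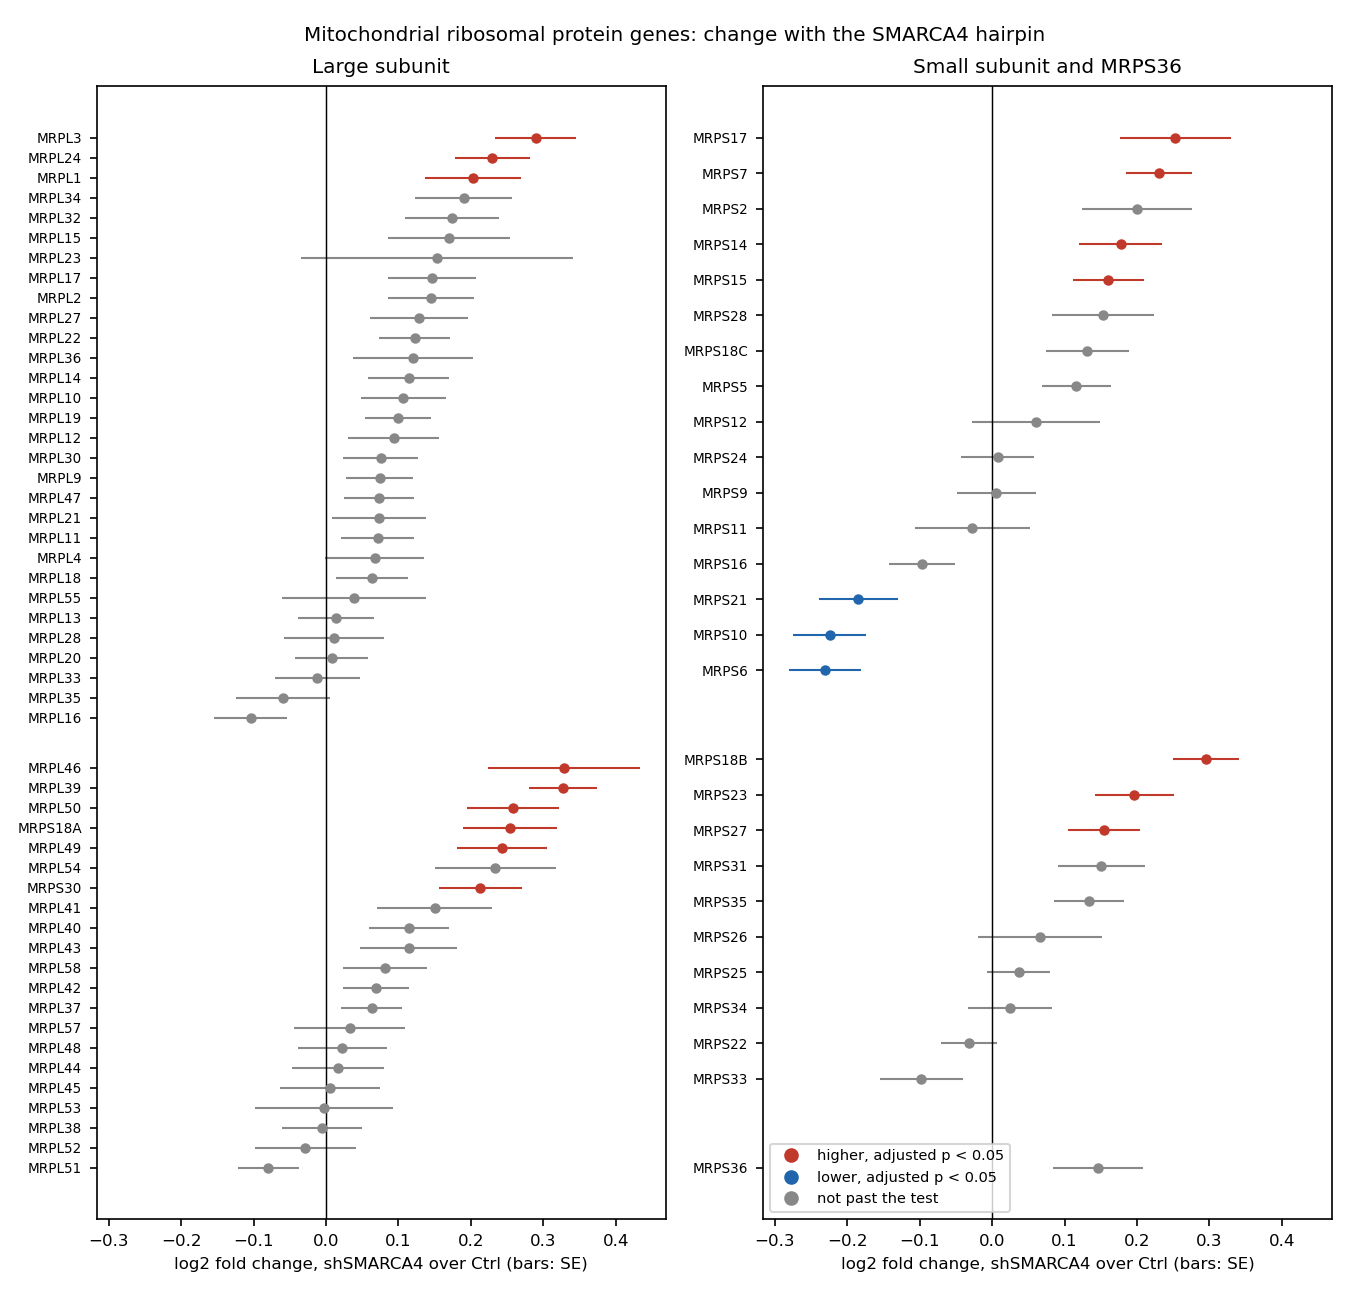
Log2 fold change of shSMARCA4 over Ctrl with its standard error (SE, horizontal bars) for the 51 large subunit genes (left) and the 26 small subunit genes with MRPS36 (right). In each panel the genes with a bacterial counterpart stand above those specific to mitochondria. The points range from -0.23 to 0.33, most lie right of 0, and the 3 lower calls are all small subunit genes.

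In the large subunit 9 of 51 genes rose and 0 fell (17.6% called). In the small subunit 7 of 26 rose and 3 fell (38.5% called). Of all genes tested 29.7% were called, and of protein-coding genes tested within the level range of the mitoribosomal genes 38.3%. The small subunit share was thus close to that of genes at similar levels, and the large subunit share was below both. DESeq2, and the fit that kept low counts, also called 0 large subunit genes as lower, and 7 of the 51 had a log2 fold change below 0. The medians were nearly equal, at a log2 fold change of 0.09 in the large subunit and 0.09 in the small subunit. The quartiles were 0.03 and 0.16 in the large subunit and -0.02 and 0.16 in the small subunit. Grouped by symbol instead, 7 of 49 MRPL genes and 9 of 29 MRPS genes rose, and 0 and 3 fell. Of 46 genes listed with a bacterial counterpart 7 rose and 3 fell, and of 31 genes listed as specific to mitochondria 9 rose and 0 fell. The 31 include MRPS18A and MRPS18B, which both rose and are paralogs of MRPS18C, 1 of the 46. Whether these shares differ between subunits, between the 2 classes or from the background was not tested.

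Among large subunit proteins with a bacterial counterpart, 3 of 30 rose. MRPL3, the counterpart of the ribosomal core protein L3, is encoded on the minus strand of chromosome 3 (131462212 to 131502971, hg38; ENSG00000114686.9). It stood at 316 and 302 CPM in shSMARCA4 libraries 1 and 2, against 267 and 239 CPM in Ctrl libraries 1 and 2, the most abundant message of the 78. This was a log2 fold change of 0.29 (SE 0.056, adjusted p = 0.00453), 22.2% higher. MRPL24, the counterpart of the assembly protein L24, stood at 54.4 and 58.0 CPM in shSMARCA4 cells, against 48.6 and 47.2 CPM in Ctrl cells (log2 fold change 0.23, SE 0.052, adjusted p = 0.0101), and this call was lost without shSMARCA4 library 2. MRPL1, the counterpart of the protein of the L1 stalk, stood at 45.9 and 43.7 CPM in shSMARCA4 cells, against 41.3 and 36.5 CPM in Ctrl cells. Its log2 fold change of 0.20 (SE 0.067, adjusted p = 0.0479) was lost in 6 of 15 alternative fits. The groups did not overlap in any of the 3, which was also so in 65.9% of all genes tested. Of those not past the test, MRPL34 (log2 fold change 0.19, SE 0.067, adjusted p = 0.0611) and MRPL32 (0.17, SE 0.065, adjusted p = 0.0731) had the largest values.

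Among large subunit proteins listed as specific to mitochondria, 6 of 21 rose. MRPL39 (chromosome 21, 25585656 to 25607517, minus strand; ENSG00000154719.14) stood at 59.4 and 60.6 CPM in shSMARCA4 libraries 1 and 2, against 47.5 and 48.1 CPM in Ctrl libraries 1 and 2. Both libraries of each group lay close together, and the gap between groups was a log2 fold change of 0.33 (SE 0.047, adjusted p = 9.44e-04). MRPL46, a protein with a Nudix fold, had 21.6 and 22.1 CPM in shSMARCA4 cells, against 19.5 and 15.3 CPM in Ctrl cells, a rise of 25.6% with wide error (log2 fold change 0.33, SE 0.11, adjusted p = 0.0434). The 2 Ctrl libraries differed more from each other than the nearest libraries of the 2 groups did, and without Ctrl library 2 the log2 fold change was 0.17 and the call was lost. MRPL50 (log2 fold change 0.26, SE 0.064) and MRPL49 (0.24, SE 0.062) also rose, and so did the proteins with small subunit symbols, MRPS18A (0.25, SE 0.065) and MRPS30 (0.21, SE 0.057). Their adjusted p-values lay between 0.0149 and 0.0207.

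Of the large subunit genes not past the test, 4 encode proteins with well-known roles and were picked by hand. MRPL12, the counterpart of the stalk protein that recruits translation factors, had a log2 fold change of 0.09 (95% interval -0.05 to 0.24). MRPL45, which lies at the exit tunnel and ties the particle to the inner membrane, had 0.01 (95% interval -0.15 to 0.16). MRPL44, which has a ribonuclease III-like fold, had 0.02 (95% interval -0.13 to 0.16), and MRPL58, a peptidyl-tRNA hydrolase built into the subunit, had 0.08 (95% interval -0.05 to 0.21). The intervals of these 4 leave room for changes as large as those of some genes that did. MRPL54 (log2 fold change 0.23, SE 0.084, adjusted p = 0.0638) and MRPL41 (0.15, SE 0.079, adjusted p = 0.191) had the largest values among the mitochondria-specific large subunit genes that did not pass.

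The small subunit held changes in both directions. Of its 16 proteins with a bacterial counterpart, MRPS7, MRPS17, MRPS15 and MRPS14 rose, and MRPS6, MRPS10 and MRPS21 fell. MRPS7, the counterpart of S7 in the head of the subunit (chromosome 17, 75261879 to 75266376, plus strand; ENSG00000125445.11), stood at 68.0 and 68.0 CPM in shSMARCA4 cells, against 59.0 and 56.9 CPM in Ctrl cells (log2 fold change 0.23, SE 0.046, adjusted p = 0.00546). MRPS17 (0.25, SE 0.076), MRPS14 (0.18, SE 0.058) and MRPS15 (0.16, SE 0.049) had adjusted p-values between 0.0342 and 0.0452, and each lost its call in at least 4 of 15 alternative fits.

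The genes that fell were MRPS6, MRPS10 and MRPS21. MRPS6, the counterpart of S6 (chromosome 21, 34073549 to 34143034, plus strand; ENSG00000243927.6), stood at 37.1 and 37.9 CPM in shSMARCA4 libraries 1 and 2, against 44.0 and 43.9 CPM in Ctrl libraries 1 and 2. Both groups were tight, and the log2 fold change was -0.23 (SE 0.050, adjusted p = 0.00840). MRPS10, the counterpart of S10 in the head of the subunit, stood at 88.7 and 84.4 CPM in shSMARCA4 cells, against 105 and 97.4 CPM in Ctrl cells (log2 fold change -0.22, SE 0.051, adjusted p = 0.0101). MRPS21, the counterpart of S21, stood at 59.0 and 57.3 CPM in shSMARCA4 cells, against 69.0 and 63.3 CPM in Ctrl cells (log2 fold change -0.19, SE 0.055, adjusted p = 0.0311). The groups did not overlap in any of the 3, which was also so in 65.9% of all genes tested. The MRPS21 call was lost in 6 of 15 alternative fits, library totals alone and DESeq2 among them, while those of MRPS6 and MRPS10 were each lost in 2, that of MRPS6 with DESeq2 or without shSMARCA4 library 1 and that of MRPS10 with no filter or without shSMARCA4 library 2. MRPS2 (0.20, SE 0.076, adjusted p = 0.0776) and MRPS28 (0.15, SE 0.070, adjusted p = 0.135) had the largest values of those not past the test.

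Of 10 small subunit proteins listed as specific to mitochondria, 3 rose. MRPS18B (chromosome 6, 30617840 to 30626392, plus strand; ENSG00000204568.12) stood at 68.5 and 68.0 CPM in shSMARCA4 libraries 1 and 2, against 56.4 and 54.9 CPM in Ctrl libraries 1 and 2. Its log2 fold change was 0.29 (SE 0.046, adjusted p = 0.00147). MRPS23 (0.20, SE 0.054, adjusted p = 0.0240) and MRPS27, a protein with pentatricopeptide repeats (0.15, SE 0.049, adjusted p = 0.0427), also rose. The paralogs MRPS18A, MRPS18B and MRPS18C, which sit at different places in the particle, had log2 fold changes of 0.25, 0.29 and 0.13, the last not past the test (SE 0.057, adjusted p = 0.117). MRPS35 (0.13, SE 0.049, adjusted p = 0.0668) and MRPS31 (0.15, SE 0.060, adjusted p = 0.0909) did not pass, nor did MRPS36 (0.15, SE 0.062, adjusted p = 0.110).

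**Figure D2:**
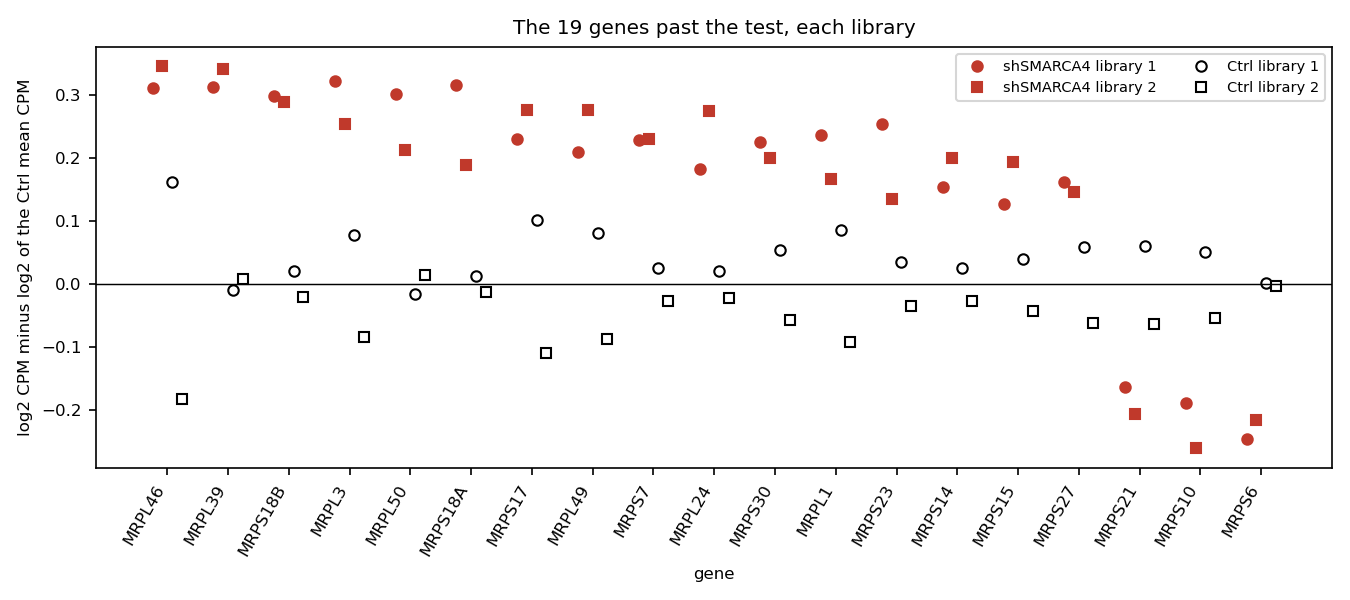
Log2 CPM of each library minus log2 of the Ctrl mean CPM, for the 19 genes past the test, ordered by log2 fold change. Filled red symbols are the shSMARCA4 libraries, open black symbols the Ctrl libraries, circles library 1 and squares library 2. The groups do not overlap in any of the 19, but these genes were chosen by the test between the same groups, so this adds no support. Over all genes tested the groups do not overlap in 65.9%. MRPL46 has the widest gap between its Ctrl libraries (19.5 and 15.3 CPM).

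Of the 19 calls, 4 were made in each of the 15 alternative fits, those of MRPL39, MRPS18B, MRPL3 and MRPS7. The direction of all 19 was the same in each of these fits. This adds no support, because the groups did not overlap in any of the 19. Leaving out a library could then hardly reverse a direction, and the other fits used the same counts. Counting did not separate strands, so genes that overlap share reads. In GENCODE release 29, 25 of the 76 members whose counted transcript it holds shared over 10% of exon bases with another gene, among them 5 that were called. MRPS6 shared 273 exon bases with SLC5A3, a myo-inositol transporter gene on the same strand, which itself fell by 0.37 on the log2 scale. MRPS18A shared 604 bases with RSPH9 on the other strand, MRPL46 shared 724 bases and MRPS17 471 bases with genes that have no symbol in the table, and MRPS7 shared 131 bases with GGA3 and 146 with MIF4GD. Values of these 5 genes are therefore uncertain. Without the 25 genes, 12 rose and 2 fell. Pseudogene rows exist for 36 of the 78, and their counts reached more than 2% of the parent gene's only for MRPS31, at 23.3%.

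Many promoters of these genes, though not all, hold letters that the choice of members did not use. RefSeq promoters (GRCh38.p14, 250 bases before to 50 after the start nearest the counted transcript) were found for 69 of the 78. The letters CCGGAAG (ETS) stood on either strand in 30 of 69 (43.5%), against 19.5% of 10776 promoters of protein-coding genes tested and 10.3% of all promoters in the RefSeq table. The letters AAGATGGCG (YY1) stood in 13 of 69 (18.8%), against 4.13% and 1.75%. The letters GCGCATGC (NRF1) stood in 6 of 69 (8.70%), against 5.63% and 3.05%. The YY1 letters contain an ATG, and 12 of their 14 occurrences read on the gene's own strand, 10 of the 14 from the start site onwards. ETS letters were centred before the start, with a median first base 24 bases upstream over 40 occurrences. Occurrences of different motifs can share up to 3 letters, where the end of the ETS letters is also the start of the YY1 letters, or the end of the YY1 letters the start of the NRF1 letters.

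Promoter windows of called genes follow, each with 30 bases on either side of the motif or up to the end of the promoter, 5′ to 3′ on the gene's strand. They show these letters and the bases around them in genes that rose and in genes that fell, and the start is not marked. Capitals mark the YY1 letters in the first 6 and the ETS letters, or their reverse complement, in the last 3. The MRPS21 window holds another ETS match, left in lower case.
MRPL46 (rose; chr15:88467342-88467410, minus strand): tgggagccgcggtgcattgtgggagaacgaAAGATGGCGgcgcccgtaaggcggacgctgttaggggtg
MRPL50 (rose; chr9:101398569-101398625, minus strand): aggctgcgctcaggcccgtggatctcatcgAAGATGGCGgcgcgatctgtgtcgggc
MRPS18A (rose; chr6:43687744-43687812, minus strand): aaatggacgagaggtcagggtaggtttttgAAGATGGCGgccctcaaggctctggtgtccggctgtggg
MRPS18B (rose; chr6:30617833-30617889, plus strand): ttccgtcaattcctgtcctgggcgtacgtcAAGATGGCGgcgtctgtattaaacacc
MRPS30 (rose; chr5:44808930-44808996, plus strand): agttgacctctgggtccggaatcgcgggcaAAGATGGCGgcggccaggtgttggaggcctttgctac
MRPS10 (fell; chr6:42217814-42217882, minus strand): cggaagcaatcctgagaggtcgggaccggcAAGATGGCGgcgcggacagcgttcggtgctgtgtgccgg
MRPL3 (rose; chr3:131502967-131503033, minus strand): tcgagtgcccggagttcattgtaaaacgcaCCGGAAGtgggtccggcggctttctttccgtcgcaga
MRPS21 (fell; chr1:150293820-150293886, plus strand): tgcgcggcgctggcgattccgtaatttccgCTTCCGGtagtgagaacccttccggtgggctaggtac
MRPS23 (rose; chr17:57850022-57850088, minus strand): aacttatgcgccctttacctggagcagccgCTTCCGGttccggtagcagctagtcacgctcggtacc

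ETS and YY1 letters stood both in promoters of genes that rose and in promoters of genes that fell. ETS letters were in 3 of 16 promoters of genes that rose, 2 of 3 of genes that fell and 25 of 50 of genes not past the test. YY1 letters were in 5 of 16, 1 of 3 and 7 of 50, and NRF1 letters in 1 of 16, 0 of 3 and 5 of 50. A match is a run of letters and was not tested as a binding site, and the numbers are too small to set one group of members against another.

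**Figure D3:**
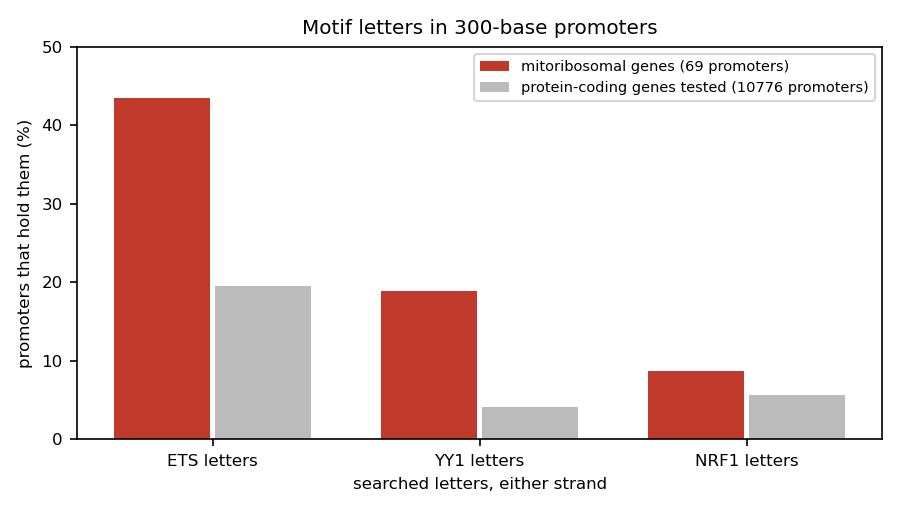
Share of 300-base promoters (%) that hold the searched letters of each motif on either strand, in 69 mitochondrial ribosomal protein genes (red) and 10776 protein-coding genes tested (grey). Shares were 43.5% against 19.5% for ETS, 18.8% against 4.13% for YY1 and 8.70% against 5.63% for NRF1.

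Other genes of mitochondrial gene expression moved both ways. Of 5 mitoribosomal proteins with other symbols, DAP3, the GTP-binding protein of the small subunit, rose to 154 and 149 CPM in shSMARCA4 cells, against 128 and 125 CPM in Ctrl cells (log2 fold change 0.26, SE 0.042, adjusted p = 0.00200). AURKAIP1, GADD45GIP1, CHCHD1 and PTCD3 lay between -0.00 and 0.05 on the log2 scale and did not pass. Of 31 factors of mitoribosome assembly and rRNA maturation, 6 rose and 2 fell (median log2 fold change 0.07). The assembly GTPase MTG1 (0.33, SE 0.061) and the large subunit assembly factor MALSU1 (0.22, SE 0.050) rose, as did the rRNA methyltransferases MRM1 (0.45, SE 0.15), MRM2 (0.20, SE 0.047) and NSUN4 (0.23, SE 0.060) and the rRNA-binding MTERF3 (0.29, SE 0.069). The calls of MRM1, MRM2 and NSUN4 were lost with DESeq2 and where low counts were not filtered, and those of MALSU1 and MTERF3 in the latter fit. NDUFAB1, the mitochondrial acyl carrier protein, fell to 27.4 and 26.4 CPM in shSMARCA4 cells, against 40.8 and 38.5 CPM in Ctrl cells (log2 fold change -0.56, SE 0.059), and NGRN, which acts in rRNA maturation, fell by 0.34 on the log2 scale.

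Of 22 mitochondrial translation factors, 5 rose and 4 fell (median log2 fold change 0.05). The recycling factor MRRF (0.42, SE 0.056), the elongation factors TUFM (0.18, SE 0.043) and GFM1 (0.18, SE 0.051), the initiation factor MTIF2 (0.20, SE 0.051) and the amidotransferase subunit QRSL1 (0.24, SE 0.056) rose. GFM2, which acts with MRRF in recycling, fell (-0.28, SE 0.043), and so did the tRNA-modifying enzymes GTPBP3 (-0.48, SE 0.092) and TRMU (-0.25, SE 0.064) and the rescue factor MTRES1 (-0.36, SE 0.085). The calls of MTIF2, TRMU and MTRES1 were lost with DESeq2 and where low counts were not filtered, and those of TUFM, GFM1 and QRSL1 in the latter fit. Of 19 aminoacyl-tRNA synthetases that act in mitochondria, IARS2 (0.17, SE 0.037) rose and CARS2 (-0.46, SE 0.063) and GARS1 (-0.17, SE 0.040), which also serves the cytosol, fell. The calls of IARS2 and GARS1 were lost when either shSMARCA4 library was left out, and that of GARS1 also where low counts were not filtered. Of 27 genes of mitochondrial transcription and RNA processing, 8 rose and 2 fell. The transcription factors TFAM (0.25, SE 0.049) and TFB2M (0.34, SE 0.065) and the polyribonucleotide phosphorylase PNPT1 (0.74, SE 0.066), an interferon-induced gene, were among those that rose.

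RNA made from the mitochondrial genome was lower in the fit reported, but the Ctrl libraries differed. This genome took 3.31% and 4.06% of counts in Ctrl libraries 1 and 2, against 3.19% and 3.08% in shSMARCA4 libraries 1 and 2. Ctrl library 1 thus lay nearer to both shSMARCA4 libraries than to Ctrl library 2. Of the 13 messenger RNAs of this genome, 9 fell and 0 rose (median log2 fold change -0.30), while 15.8% of all genes tested fell. They come from the same genome and are not 13 separate observations. The number that fell was 2 where low counts were not filtered, 4 by DESeq2 and 8 to 12 in the other fits on all 4 libraries. The log2 fold change was below 0 in all 13. In 12 of them both shSMARCA4 libraries lay below both Ctrl libraries, while over all genes tested the groups did not overlap in 65.9%. MT-RNR1, the rRNA of the small subunit, stood at 948 and 891 CPM in shSMARCA4 libraries 1 and 2, against 1067 and 1057 CPM in Ctrl libraries 1 and 2 (log2 fold change -0.21, SE 0.042, adjusted p = 0.00570), a call lost without shSMARCA4 library 2. MT-RNR2, the rRNA of the large subunit, stood at 7836 and 7487 CPM in shSMARCA4 cells, against 8065 and 9072 CPM in Ctrl cells, and did not pass (log2 fold change -0.16, SE 0.055, adjusted p = 0.0556).

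**Figure D4:**
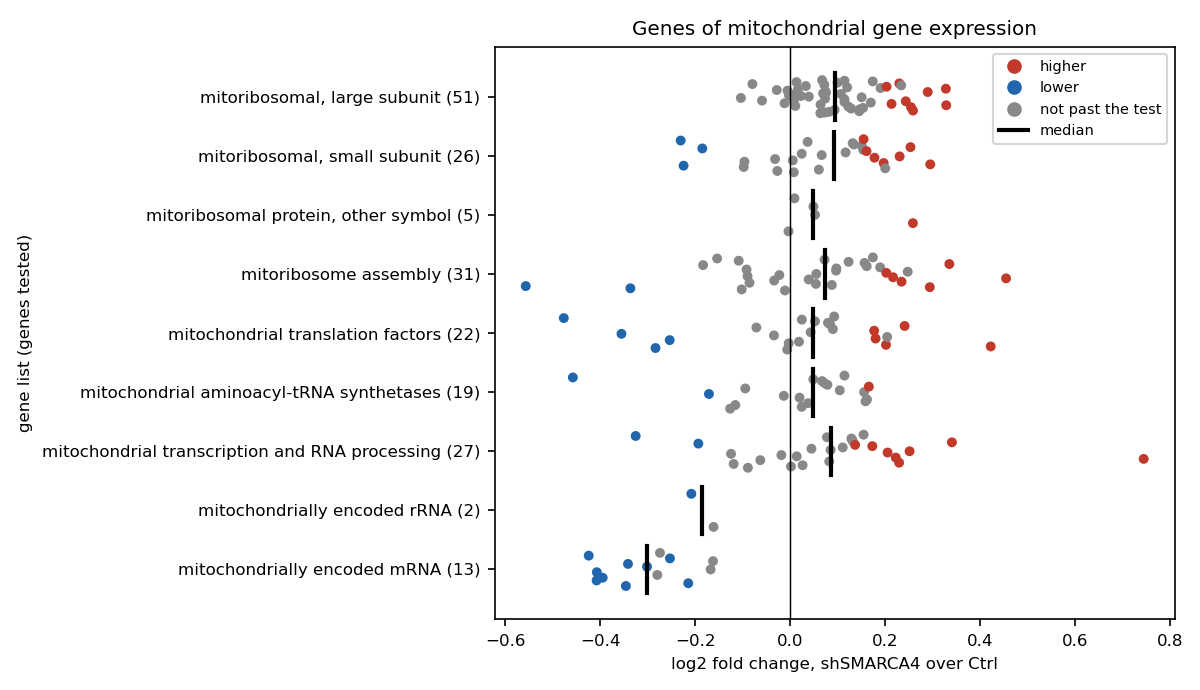
Log2 fold change of shSMARCA4 over Ctrl for every tested gene of each list, 1 point a gene, with vertical bars at the median. The medians are 0.09 for both mitoribosomal subunits, between 0.05 and 0.09 for the nuclear-encoded lists below them, -0.18 for the pair of mitochondrially encoded rRNAs and -0.30 for the 13 mitochondrially encoded messenger RNAs.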

How the data were processed

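The deposited values are raw counts, 1 column for each of 4 libraries of total RNA, and all were used. Per the file header, the authors counted reads over exons of GENCODE release 45 (hg38) with HOMER analyzeRepeats, on both strands, with 1 transcript kept per gene and no normalization. The submitters' processing notes also name STAR 2.6.1c and DESeq2 1.19.38.

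Genes were filtered with edgeR's filterByExpr (minimum count 10), which kept 18781 of 63241. Counts were scaled by TMM and tested with edgeR 4.0.16 (R 4.3.3) glmQLFit and glmQLFTest on the 4 libraries, with no covariate. P-values were adjusted by Benjamini-Hochberg over all genes tested, with a threshold of 0.05. The SE is the log2 fold change over the square root of F, and intervals are 95%. CPM uses TMM-scaled totals. The script was tested on simulated counts. The 2 libraries of a group differed beyond counting noise (chi-square over its degrees of freedom was 1.96 in shSMARCA4 and 6.94 in Ctrl), so neither pair looked like 1 library deposited more than once; this does not show that they are biological replicates. Alternatives were DESeq2 1.42.0, limma-voom (limma 3.58.1), other scalings and filters, a length correction, a replicate block and leaving out each library.

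The members, gene lists and motifs were chosen with earlier results of these data known. The rule for named genes took SMARCA4, members past the test, the 2 of each subunit class with the largest change among those not past it, the 5 highest and 5 lowest per length, the MRPS18 paralogs, members that overlap another gene or have a pseudogene, up to 4 genes past the test in each other list by adjusted p, both mitochondrial rRNAs and 6 regulators. MRPL58, MRPS36, MRPS11, the 4 genes listed beside DAP3 and further genes past the test in the other lists were named after their values were seen.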

Additional observations from a re-analysis of the deposited data

How the results depend on the processing

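Across 15 alternative fits, 0 of the 19 called mitochondrial ribosomal protein genes reversed direction, 4 kept their call in each fit, and 25 of the 59 not past the test passed in at least 1 alternative. The unchanged directions add no support, since the groups did not overlap in any of the 19. The counts moved with scaling, filter, tool and the library left out. With library totals alone, 31 of the 78 genes were higher (18 in the large and 12 in the small subunit, medians 0.14 and 0.14), and the median log2 fold change of all genes was 0.04, with 59.5% of all calls higher against 46.6% in the fit reported. With no filter on low counts, 5 were higher and 1 lower (large subunit 3 higher, small subunit 2 higher and 1 lower), of 3187 genes called. With DESeq2, 6 were higher and 1 lower (large subunit 4 higher, small subunit 2 higher and 1 lower), of 3555 genes called. The cause of these differences was not tested. Leaving out 1 library at a time gave 8 to 33 genes higher and 1 to 4 lower. The large subunit had 5 to 23 higher and 0 to 0 lower, with medians of 0.0502 to 0.14. The small subunit had 3 to 10 higher and 1 to 4 lower, with medians of 0.07 to 0.11. Of all genes, 3801 to 7446 were called, against 5572 in the fit reported. A replicate block gave 23 higher and 3 lower, with 14 large subunit genes higher, and 14 also with a length correction. The labels do not tie the replicate numbers across groups, and the deviations of same-numbered libraries correlated at 0.0754, so the numbers were not taken as pairs. Without the 25 genes that share over 10% of exon bases, an alternative chosen after seeing the data, 12 were higher and 2 lower. With 2 libraries a group, the median SE of the 78 genes was 0.058 on the log2 scale, which limits what could be detected.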

Other observations

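Of 10 known regulators of mitochondrial biogenesis, 4 rose and 1 fell. MYC, a transcription factor of growth, stood at 161 and 154 CPM in shSMARCA4 libraries 1 and 2, against 100.2 and 93.8 CPM in Ctrl libraries 1 and 2 (log2 fold change 0.70, SE 0.049). The ETS factor GABPA stood at 76.3 and 80.1 CPM in shSMARCA4 cells, against 67.4 and 65.5 CPM in Ctrl cells (log2 fold change 0.23, SE 0.047). YY1 (0.14, SE 0.038) and the coactivator PPARGC1B (0.36, SE 0.094) rose and GABPB2, a partner of GABPA, fell by 0.28 on the log2 scale. The calls of YY1, PPARGC1B and GABPB2 were lost with DESeq2 and where low counts were not filtered. NRF1 did not pass (0.04, SE 0.072). PPARGC1A, a paralog of PPARGC1B, did not pass either, though its log2 fold change of -1.30 was the lowest of the 10. It ran from -1.91 to -0.78 over 14 alternative fits, and it passed as lower with a replicate block. Its mean level was only 0.465 CPM, the lowest of the 10.

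Of the 78 genes, 23 (29.5%) have the start of another protein-coding gene in divergent orientation within 1000 bases, against 11.5% of 13680 protein-coding genes tested. The pairs named here were chosen after their values were seen. MRPL46 and MRPS11 start 318 bases apart, and their log2 fold changes were 0.33 (past the test) and -0.03 (not past it). MRPS18B and PPP1R10, a regulatory subunit of protein phosphatase 1, start 597 bases apart, and MRPS18B rose (0.29, SE 0.046) while PPP1R10 fell (-0.30, SE 0.074).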
